A study of Mus musculus with 4 samples.

Results

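The genes described here were 10 markers of osteoblasts and osteocytes, the cells that build and maintain bone, measured in nasal mucosa of young adult and aged mice. They were taken from the array by name: *Runx2*, *Sp7*, *Bglap*, *Ibsp*, *Spp1*, *Alpl*, *Phex*, *Dmp1*, *Mepe* and *Ostn*. A non-control probe counted as belonging to a gene when its accession was listed under that symbol in the RefSeq gene table. This gave 14 of the 56605 probes and 10 of the 45604 genes tested. *Runx2* had 3 probes, *Sp7* and *Phex* had 2 each, and the other genes had 1 each.

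RNA came from the nasal mucosa of C57BL/6J mice at 8 weeks (young adult) or 16 months (aged), with no transgene or agent named in the labels. The paper's methods name the septum for histology and qPCR, and nasal mucosa without a site for the arrays. Each RNA sample was pooled from 5 mice, and 2 pools per age were hybridized, giving 4 one-color arrays. The labels call the tissue olfactory epithelium, although the nasal mucosa also contains connective tissue and lies on cartilage and bone. A stray label mentioning lung cells and silica was present on every sample and was not used. By the methods, too few mice per age went into RNA work to fill both pools without overlap, so the pools of one age may share mice, and the P values measure only the spread between pools, which may be partly technical.

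Osteoblasts secrete a collagen-rich matrix and deposit calcium phosphate in it, and some of them become enclosed in that matrix as osteocytes. RUNX2 and SP7 (osterix) are transcription factors required for osteoblast formation, and osteoblasts then produce alkaline phosphatase, bone sialoprotein, osteopontin and osteocalcin. Osteocytes express DMP1, PHEX and MEPE, which act in mineralization and phosphate balance, and the nasal cavity is enclosed by thin bones that hold such cells.

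Between 63.1% and 76.8% of probes stood clearly above the local background, depending on the array, and no spot was saturated. Young adult pool 1 and aged pool 1 were on the same slide, and the other arrays were each on a slide of their own. All 9 markers of olfactory receptor neurons were above background on every array, and their median log2 fold change was 0.14, with *Omp* at 0.15 (FDR 0.549) and *Gng13* at 0.10 (FDR 0.638). Only 1 of the 9 was negative, *Gap43* of immature neurons, at -0.41, and it narrowly missed the FDR limit of 0.25 (FDR 0.251). *Xist*, expressed from the inactive X chromosome of females, read 612 to 645 on the 4 arrays, and 4 Y-linked genes (*Ddx3y*, *Uty*, *Kdm5d* and *Eif2s3y*) stayed at background level throughout, although the mice are described as male. *Prl*, the pituitary hormone prolactin, read 282 and 238 in young adult pools and 8155 and 7969 in aged pools. With *Gh*, it was 1 of 2 pituitary markers of 8 that rose, while *Lhb* had a log2 fold change of 0.26 (FDR 0.767). *Cga* read 37.1 and 22.5 in young adult pools and 107 and 78.7 in aged pools and missed the FDR limit (FDR 0.260).

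To show regulatory sequence of the genes, the start-site regions of 3 that fell and 1 that did not pass the test are printed. Each window runs from 250 bases before to 50 bases after the RefSeq start site, on the strand of the gene, in the GRCm38.p6 assembly. *Runx2* and *Bglap* are read from the minus strand at chr17:44814578-44814877 and chr3:88384417-88384716. *Spp1* and *Mepe* are read from the plus strand at chr5:104434861-104435160 and chr5:104325079-104325378. Capitals mark the letters ACCACA or, on the opposite strand, TGTGGT, the core that RUNX proteins recognize. *Spp1* is shown as a gene with lower intensity in aged mice and *Mepe* as one whose groups overlapped.
Runx2: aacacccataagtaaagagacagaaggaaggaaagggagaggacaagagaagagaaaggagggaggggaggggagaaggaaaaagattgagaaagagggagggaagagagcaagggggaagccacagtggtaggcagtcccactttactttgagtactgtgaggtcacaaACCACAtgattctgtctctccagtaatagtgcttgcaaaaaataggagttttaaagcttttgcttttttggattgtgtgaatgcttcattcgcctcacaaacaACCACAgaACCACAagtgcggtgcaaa
Bglap: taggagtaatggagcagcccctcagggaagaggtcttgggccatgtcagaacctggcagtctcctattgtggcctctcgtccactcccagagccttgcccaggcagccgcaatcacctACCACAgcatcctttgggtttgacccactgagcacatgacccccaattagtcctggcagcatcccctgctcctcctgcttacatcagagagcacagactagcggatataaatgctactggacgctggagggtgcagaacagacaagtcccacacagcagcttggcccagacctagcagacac
Spp1: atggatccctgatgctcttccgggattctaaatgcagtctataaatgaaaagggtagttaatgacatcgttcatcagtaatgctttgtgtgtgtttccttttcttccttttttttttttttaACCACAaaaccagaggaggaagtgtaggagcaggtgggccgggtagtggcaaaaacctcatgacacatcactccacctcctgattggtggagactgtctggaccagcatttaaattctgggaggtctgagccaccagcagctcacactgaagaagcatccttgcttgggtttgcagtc
Mepe: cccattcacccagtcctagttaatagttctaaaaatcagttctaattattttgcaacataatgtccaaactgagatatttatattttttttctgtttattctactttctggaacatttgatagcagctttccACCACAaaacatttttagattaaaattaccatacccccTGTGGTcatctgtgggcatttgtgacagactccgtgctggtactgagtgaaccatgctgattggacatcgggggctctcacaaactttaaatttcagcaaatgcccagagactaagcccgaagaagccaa

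RefSeq windows were found for 8 of the 10 genes, 11 windows in all, and not for *Sp7* or *Ostn*. The RUNX core on either strand occurred in 5 of the 11 windows, belonging to *Runx2*, *Bglap*, *Spp1*, *Dmp1* and *Mepe*, against 16.8% of all 32851 windows. In the *Runx2* window the first base of the core lay at -80, 24 and 32, counting the start site as 1, and in *Bglap* and *Spp1* at -132 and -128. *Mepe* held the core at -118 and, on the opposite strand, at -80. The homeodomain core TAATT, or AATTA on the opposite strand, occurred in 5 of 11 windows against 27% of all windows. TATAAA or TTTATA occurred in 5 of 11 windows against 13.6%, and in *Bglap* it lay at -27. No RUNX core overlapped another of these motifs. The core was present both in genes whose intensity fell and in *Mepe*, whose groups overlapped.

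Intensities were lower in aged than in young adult mice for most of these genes. With limma, 7 of the 10 genes fell and none rose (P below 0.05 and FDR below 0.25), where 2.33% of all genes tested fell and 1.65% rose, 3.98% in either direction. The genes that fell were *Runx2*, *Bglap*, *Ibsp*, *Spp1*, *Alpl*, *Dmp1* and *Ostn*. All 10 fitted log2 fold changes were negative, with a median of -0.91 against 0.01 over all genes. In 8 genes each aged pool read lower than each young adult pool, an order seen in 21.8% of all genes. Of the 7, 5 also had a mean intensity of at least 100 and a fold change of at least 1.5 (*Bglap*, *Ibsp*, *Spp1*, *Alpl* and *Dmp1*), against 1.15% of all genes. The shares of all genes include 10924 genes above background on no array, while all 10 bone genes were above background in both young adult pools. With only probes above background in both pools of at least 1 age kept, 3671 of 29495 genes fell, and 9 of the 10 bone genes did. *Sp7*, *Phex* and *Ostn* passed this filter only through the young adult pools, where they read higher. That count is therefore not separate support for a fall. In these bulk samples, fewer bone cells and less of each RNA per cell cannot be told apart.

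**Figure D1:**
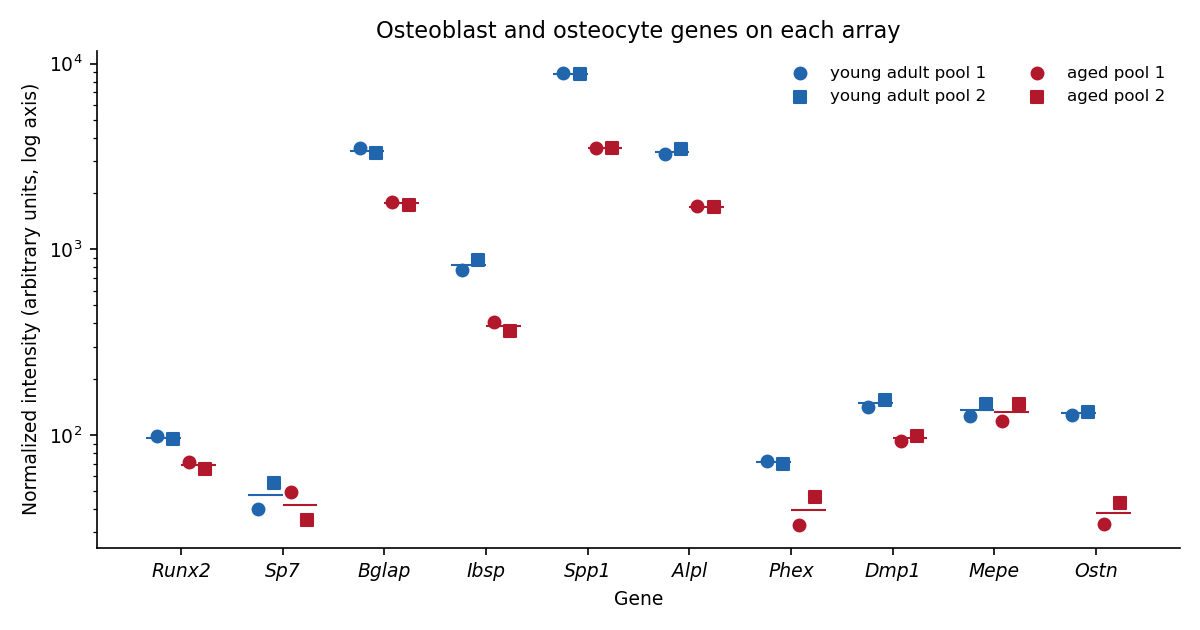
Normalized intensity (arbitrary units, log axis) of each of the 10 genes on the 4 arrays, blue for young adult and red for aged pools; short lines are group means. Both aged points lie below both young adult points in 8 genes, and the groups overlap in *Sp7* and *Mepe*. Heights of different genes are not comparable, since each has its own probes.

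The transcription factors at the head of the osteoblast program gave small differences. *Runx2*, the master regulator of osteoblast commitment, read 98.5 and 95.5 in young adult pools and 71.5 and 65.9 in aged pools. Both aged values were below both young adult values. The means were 97.0 ± 2.17 and 68.7 ± 4.0 (SD, n = 2 pools each), a log2 fold change of -0.50 (SE 0.088, FDR 0.240). *Runx2* was close to the FDR limit, and its call was lost with scaling to the 75th percentile (FDR 0.414), with cyclic loess (FDR 0.274) and with the processed signal of the scanner at the 75th percentile (FDR 0.288).

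*Sp7*, which acts downstream of *Runx2*, read 40.0 and 55.3 in young adult pools and 49.6 and 34.8 in aged pools, so the groups overlapped. Its log2 fold change was -0.18 with a 95% interval from -1.0 to 0.65 (FDR 0.814), which leaves both a 2-fold decrease and an increase within the interval. The value mixed probes that moved in different directions. The brighter *Sp7* probe read 113 and 136 in young adult pools and 77.7 and 72.4 in aged pools (log2 fold change -0.73, FDR over probes 0.231). The dimmer probe read 14.2 and 22.5 in young adult pools and 31.7 and 16.7 in aged pools and was not well above background in any pool. With probes not well above background left out, *Sp7* fell by 0.71 on the log2 scale (FDR 0.0625). It also passed with its most intense probe alone (FDR 0.224) and with the quantile normalized processed signal (FDR 0.168). The brighter probe was above background in both young adult pools but in only 1 aged pool. It was thus kept only through the age where it was high. The settings without dim probes and with the most intense probe both rest on it, so they are not separate support for a fall.

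The 3 *Runx2* probes also differed. The brightest read 129 and 122 in young adult pools and 69.8 and 84.7 in aged pools (log2 fold change -0.70, FDR over probes 0.238). Another read 107 and 105 in young adult pools and 114 and 68.2 in aged pools, so its groups overlapped, and its log2 fold change was -0.27 (FDR over probes 0.733). The dimmest read 69.3 and 68.3 in young adult pools and 46.0 and 49.5 in aged pools (log2 fold change -0.53, FDR over probes 0.212). The groups were thus separate for 2 of the 3 *Runx2* probes. Each of these 2 stood clear of background in only 1 of the 2 aged pools, so their aged levels are uncertain. Only the probe with overlapping groups was clear of background in every pool.

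**Figure D2:**
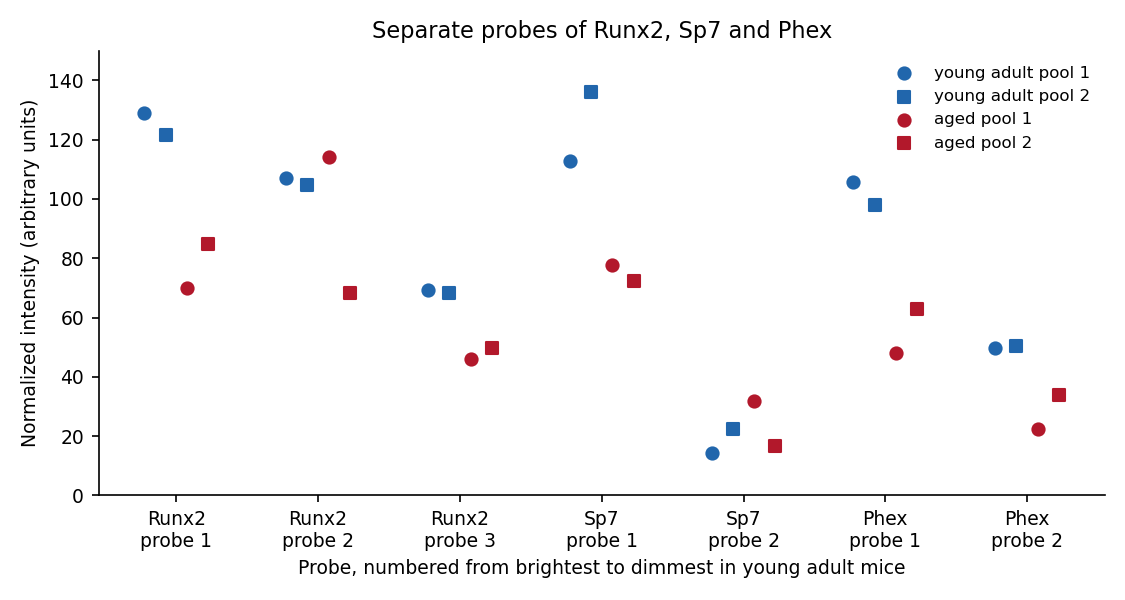
Normalized intensity (arbitrary units, linear axis) of each probe of *Runx2*, *Sp7* and *Phex* on the 4 arrays, with the probes of a gene numbered from brightest to dimmest. Young adult (blue) and aged (red) points are separate for 5 of the 7 probes and overlap for *Runx2* probe 2 and the dim *Sp7* probe.

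The 3 secreted matrix proteins of mature osteoblasts all fell, by between 1.92 and 2.51 times. *Spp1* encodes osteopontin, an acidic glycoprotein of bone that other cells, macrophages among them, also make. It read 8866 and 8793 in young adult pools and 3516 and 3531 in aged pools. The groups were far apart and the pools of one age nearly equal, with means of 8829 ± 51.4 and 3523 ± 11.1 (SD, n = 2). The log2 fold change was -1.33 (SE 0.074, FDR 0.168), a 2.51-fold decrease.

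*Ibsp*, encoding bone sialoprotein, which binds hydroxyapatite, read 770 and 873 in young adult pools and 408 and 364 in aged pools. The groups were separate, with means of 822 ± 72.4 and 386 ± 31.2 (SD, n = 2). This was a log2 fold change of -1.09 (SE 0.12, FDR 0.187), a 2.13-fold decrease.

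*Bglap*, encoding osteocalcin, a calcium-binding protein of bone matrix, read 3497 and 3305 in young adult pools and 1802 and 1736 in aged pools. The groups were separate, with means of 3401 ± 136 and 1769 ± 46.5 (SD, n = 2). Its log2 fold change was -0.94 (SE 0.083, FDR 0.178), a 1.92-fold decrease. The mouse has neighboring copies of this gene, and both also fell. *Bglap2* read 23518 and 21117 in young adult pools and 11671 and 11049 in aged pools (log2 fold change -0.97, FDR 0.185). *Bglap3* read 20643 and 18941 in young adult pools and 12167 and 10620 in aged pools (log2 fold change -0.80, FDR 0.210). The copies are nearly identical and probe sequences were not used here, so one transcript may reach more than one probe and the 3 values may not be separate measurements.

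The copies lie in a row on chromosome 3 in RefSeq order, and the genes on either side were examined as neighbors. *Paqr6*, next to *Bglap3*, fell (log2 fold change -0.53, FDR 0.222). *Pmf1*, next to *Bglap*, had a log2 fold change of 0.12 (FDR 0.595).

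The enzymes and osteocyte proteins gave a more varied picture. *Alpl*, the tissue-nonspecific alkaline phosphatase that removes the mineralization inhibitor pyrophosphate, read 3252 and 3450 in young adult pools and 1711 and 1684 in aged pools. The groups were separate, with means of 3351 ± 140 and 1697 ± 19.3 (SD, n = 2). The log2 fold change of *Alpl* was -0.98 (SE 0.081, FDR 0.178), a 1.97-fold decrease.

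*Phex*, a membrane endopeptidase of osteoblasts and osteocytes whose loss causes phosphate wasting, read 72.3 and 70.3 in young adult pools and 32.8 and 46.2 in aged pools. Both aged values lay below both young adult values, but the aged pools differed from each other (39.5 ± 9.52, SD, n = 2) more than the young adult pools did (71.3 ± 1.44). Its log2 fold change was -0.87 with a 95% interval from -1.49 to -0.26, and at an FDR of 0.290 it missed the limit. Its signal stood clear of background in both young adult pools and in 1 of the 2 aged pools. It passed in 10 of the 13 alternative settings with a test that kept all 4 arrays. Its brighter probe read 106 and 98.0 in young adult pools and 48.1 and 62.9 in aged pools (log2 fold change -0.89, FDR over probes 0.240). The dimmer probe was above background on 1 young adult array and on no aged array, so its difference is not a second measurement of the gene.

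*Dmp1*, encoding dentin matrix protein 1, an early osteocyte protein that nucleates mineral, read 142 and 155 in young adult pools and 92.8 and 99.4 in aged pools. The groups were separate, with means of 149 ± 8.92 and 96.1 ± 4.70 (SD, n = 2). Its log2 fold change was -0.63 (SE 0.095, FDR 0.214), a 1.55-fold decrease.

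*Mepe*, encoding a matrix phosphoglycoprotein of osteocytes, read 126 and 147 in young adult pools and 119 and 147 in aged pools. The groups overlapped, with means of 137 ± 14.9 and 133 ± 19.8 (SD, n = 2). Its log2 fold change was -0.05 with a 95% interval from -0.53 to 0.44 (FDR 0.923).

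*Ostn*, encoding osteocrin (musclin), a secreted peptide that binds the clearance receptor for natriuretic peptides and is made by young osteoblasts and by muscle, had the largest fitted difference of the 10 genes. With an offset of 50 that of *Spp1* was larger, at -1.31 against -1.04. It read 129 and 134 in young adult pools and 33.2 and 43.0 in aged pools. *Ostn* was not well above background on either aged array, so its level there is uncertain. The brightest *Runx2* probe read 69.8 and 84.7 in aged pools and was above background in only 1 of them, so brighter readings can also miss background. For *Ostn* the bound on the fold decrease in this normalization was 3.48, which is therefore not a firm lower limit. Both aged *Ostn* readings lay above the dimmest probe well above background, so this bound equals the fitted fold. Settings that shrank the fit (-1.34 without background correction) give a smaller one. The fitted log2 fold change was -1.80 (SE 0.16, FDR 0.178), and it reached -3.39 with the quantile normalized processed signal. Its mean over the 4 arrays was 84.8, under the limit of 100 for a DEG.

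**Figure D3:**
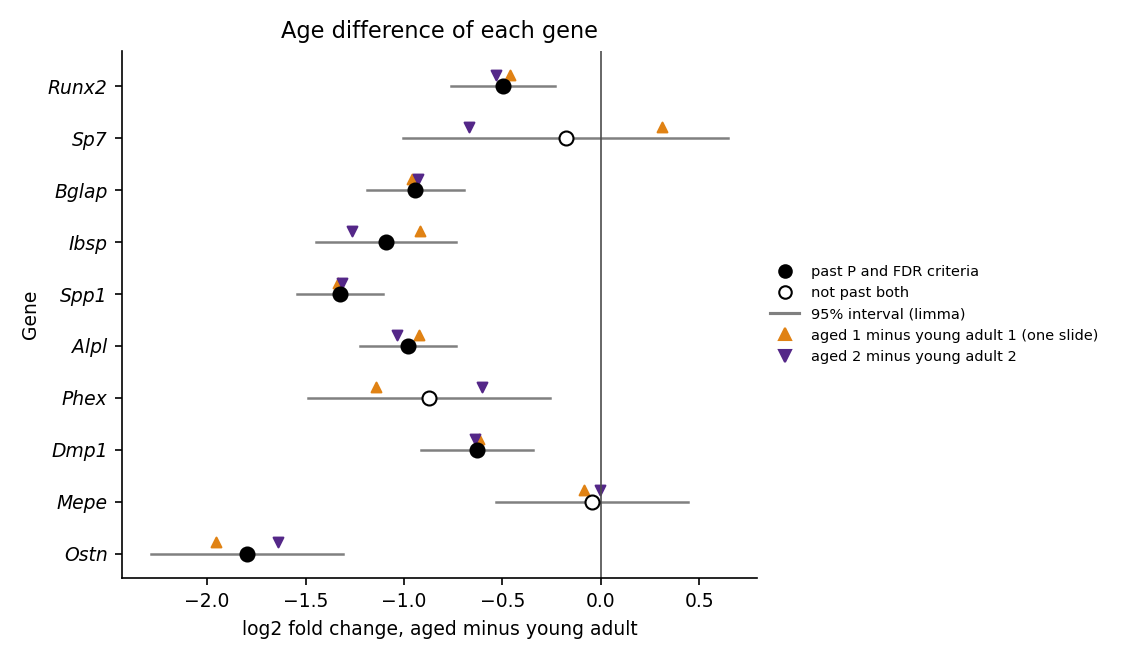
The log2 fold change (aged minus young adult) of each gene, with limma's 95% interval; filled circles passed the P and FDR criteria. Triangles give the difference between the arrays on one slide and between the other arrays: both are negative in 9 genes, and in *Sp7* they are 0.31 and -0.67.

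The slide held both ages in one case, which gave a difference within a slide. Between the arrays on that slide, 9 of the 10 genes were lower in the aged pool, with a median of -0.92, and between the other arrays the median was -0.80. *Spp1* differed by -1.33 within the slide and -1.32 between the others, and *Bglap* by -0.96 and -0.93. *Phex* differed by -1.14 within the slide and by -0.60 between the others. With the replicate number as a block, which pairs the arrays of that slide and the other arrays, 0 of the 10 genes and 0 of all genes passed (smallest FDR 0.433).

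With 2 pools per age the calls depended on all 4 arrays. Leaving out young adult pool 1, young adult pool 2, aged pool 1 or aged pool 2 left 0 of the 10 genes called, and also 0 of all genes, with the smallest FDR between 0.408 and 0.677. With all 4 arrays, 8 of the 10 were lower at an unadjusted limma P under 0.05, as were 7.08% of all genes. The median log2 fold change of the 10 genes ran from -0.94 to -0.81 without one array, against -0.91 with all arrays. The directions held without each array in 8 genes, and those of *Sp7* and *Mepe* did not. The smallest two-sided P that an exact permutation test of 2 against 2 arrays allows is 0.333, so no single gene could pass such a test.

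**Figure D4:**
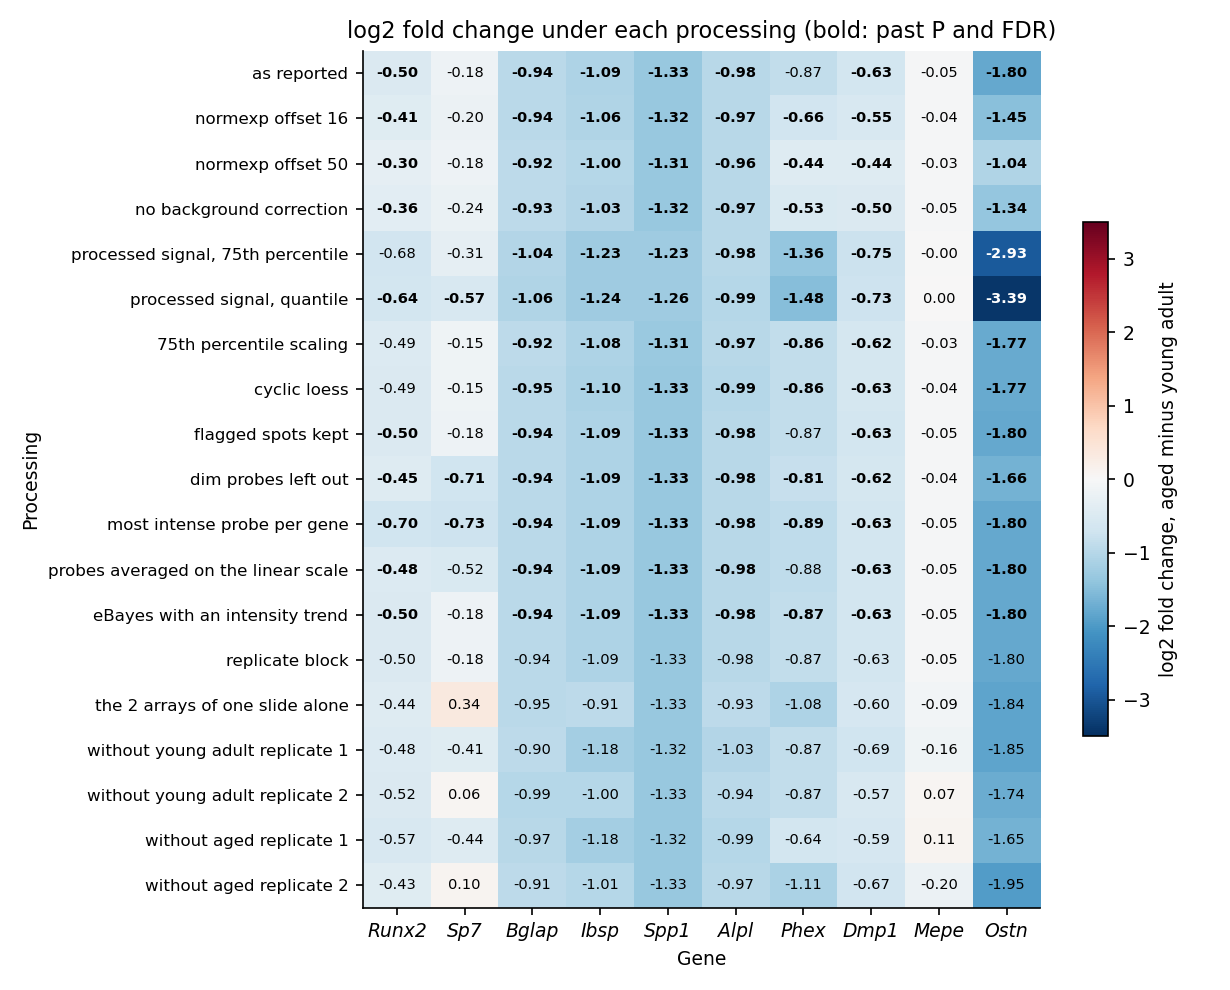
Heat map of the log2 fold change (aged minus young adult) of each gene (columns) under each way of processing (rows), with bold numbers past the P and FDR criteria; the bold-free lower rows are fits with fewer arrays or with a replicate block. *Spp1* stayed between -1.33 and -1.23, and *Ostn* ran from -3.39 to -1.04.

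*Dmp1*, *Ibsp*, *Mepe* and *Spp1* belong to one family of secreted phosphoproteins and lie in a row on chromosome 5, together with *Dspp* of dentin. In RefSeq order, the genes measured there were *Sparcl1*, *Dspp*, *Dmp1*, *Ibsp*, *Mepe*, *Spp1* and *Pkd2*. *Mepe* lies between *Ibsp* and *Spp1*, which both fell, while its own groups overlapped. *Dspp* was not well above background in any pool. Of the flanking genes, *Sparcl1* fell (log2 fold change -0.58, FDR 0.213), and *Pkd2* had a log2 fold change of -0.20 (FDR 0.659).

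The wider osteoblast and osteocyte pathway was read from 6 lists with 74 further genes, of which 20 fell and 2 rose. The median log2 fold change over the 74 genes was -0.22. The share that fell, 27.0%, stood beside 2.33% of all genes. No test was run over any list.

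Other genes of the bone matrix gave the largest share, with 9 of 15 falling, 0 rising and a median of -0.80. *Col1a1* and *Col1a2*, the chains of type I collagen, fell by 1.98 and 1.52 on the log2 scale (FDR 0.168 and 0.178). *Sparc*, encoding the collagen-binding osteonectin, read 79933 and 79072 in young adult pools and 34514 and 35027 in aged pools (log2 fold change -1.19, FDR 0.174). *Postn*, encoding periostin, fell by 1.03 on the log2 scale (FDR 0.178). Fibroblasts also express these 4 genes.

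Of 13 transcription regulators of the osteoblast lineage, 3 fell and 1 rose, with a median of -0.12. *Msx1*, a homeobox gene of craniofacial bone, read 1059 and 974 in young adult pools and 543 and 552 in aged pools (log2 fold change -0.89, FDR 0.184). *Twist1*, which restrains RUNX2, fell by 0.58 on the log2 scale (FDR 0.206), and *Zfp521*, a zinc finger protein of the same lineage, by 0.70 (FDR 0.213). *Twist2*, a close relative of *Twist1*, went the other way, from 202 and 220 in young adult pools to 639 and 658 in aged pools (log2 fold change 1.62, FDR 0.168).

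Of 13 other mineralization genes, 4 fell and 0 rose, with a median of -0.06. *Mmp13*, a collagenase of bone and cartilage, read 2307 and 2222 in young adult pools and 956 and 1024 in aged pools (log2 fold change -1.19, FDR 0.178). *Panx3*, a channel of osteoblasts and chondrocytes, fell by 1.17 on the log2 scale (FDR 0.204), *Mmp14*, a membrane-bound matrix metalloproteinase, by 0.78 (FDR 0.208) and *Smpd3*, a sphingomyelinase needed for mineralization, by 0.46 (FDR 0.241).

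Of 11 other osteocyte genes, only *Tmem119*, a membrane protein of osteoblasts, fell, by 0.41 on the log2 scale (FDR 0.242), none rose, and the median was -0.16. Of 16 signals and receptors, *Pth1r*, the parathyroid hormone receptor, fell by 0.67 (FDR 0.189), *Gja1*, the gap junction protein connexin 43, by 0.51 (FDR 0.221) and *Csf1*, a growth factor for osteoclast precursors, by 0.45 (FDR 0.246). None of these 16 rose, and their median was -0.17.

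Natriuretic peptides and their receptors were read because the osteocrin peptide binds one of them. None of the 6 fell and 1 rose. *Nppc*, encoding C-type natriuretic peptide, read 131 and 138 in young adult pools and 441 and 466 in aged pools (log2 fold change 1.75, SE 0.086, FDR 0.168). *Npr3*, the clearance receptor that osteocrin binds, read 132 and 120 in young adult pools and 106 in both aged pools (log2 fold change -0.25, FDR 0.406). *Ostn* and *Nppc* thus differed in opposite directions.

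Some markers of other cells that lie near bone fell too. Of 11 osteoclast markers, 6 fell and 0 rose, with a median of -0.58, and their summed intensity was 55619 and 54915 in young adult pools and 21061 and 20913 in aged pools. The brightest of these, *Acp5* and *Ctsk*, enzymes of bone resorption, fell by 1.61 and 1.36 on the log2 scale (FDR 0.168 for both). The summed intensity of the 10 bone genes was 16993 and 17078 in young adult pools and 7835 and 7751 in aged pools, of which *Spp1* alone gave 8866 and 8793, and 3516 and 3531. Such sums add different probes and are dominated by the brightest, so they are set side by side across pools and not between lists.

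Of 12 fibroblast markers, 6 fell and 0 rose (median -0.58), with sums of 129736 and 116475 in young adult pools and 93712 and 87767 in aged pools. The brightest, *Dcn* and *Lum*, had log2 fold changes of -0.19 (FDR 0.628) and -0.70 (FDR 0.188). The other 5 that fell, named after their values were seen, were *Col3a1*, *Dpt*, *Col6a1*, *Col6a2* and *Pi16*. *Col3a1* fell by 1.97 on the log2 scale (FDR 0.168), *Dpt* by 1.24 (FDR 0.221) and *Col6a1* by 1.02 (FDR 0.178), and as fitted here the difference of *Col3a1* was larger than that of each of the 10 bone genes. Of 15 chondrocyte markers, 4 fell and 0 rose (median -0.35), with sums of 7880 and 7810 in young adult pools and 5563 and 5498 in aged pools. The brightest, *Comp* and *Col9a2*, had log2 fold changes of -0.35 (FDR 0.283) and -0.24 (FDR 0.402). The 4 that fell, also named after their values were seen, were the cartilage matrix genes *Col2a1*, *Acan*, *Col11a1* and *Col10a1*, with log2 fold changes of -1.84, -1.30, -1.15 and -0.97 (FDR 0.168, 0.208, 0.178 and 0.178).

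Of 10 macrophage markers, 4 fell and 0 rose (median -0.41), and the sums were 14878 and 15258 in young adult pools and 11536 and 11766 in aged pools. *Csf1r* and *Lyz2*, the brightest, had log2 fold changes of -0.29 (FDR 0.379) and -0.26 (FDR 0.339). The 4 that fell, named in the same way, were *Cd68*, *Mrc1*, *Gpnmb* and *C1qc*, with log2 fold changes of -0.78, -0.65, -0.52 and -0.43 (FDR 0.201, 0.201, 0.248 and 0.238). Of 8 endothelial markers, 4 fell and 0 rose (median -0.54), with *Flt1* at -0.60 (FDR 0.201) and *Emcn* at -0.78 (FDR 0.184), and the sums were 9066 and 9119 in young adult pools and 6060 and 6158 in aged pools. The part of these cell types in the lower bone genes was not tested.

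Of 11 measured marrow markers, 2 fell (median -0.28), and the brightest were *Ltf* (log2 fold change -0.67, FDR 0.201), which glands also make, and *Hba-a1* (-0.28, FDR 0.402). The marrow sums were 289865 and 280238 in young adult pools and 187594 and 179907 in aged pools, most of it *Ltf*.

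Markers of skeletal muscle, another source of *Ostn*, gave 0 genes past the criteria of 10, with a median of -0.22. *Acta1* and *Pvalb*, the brightest, had log2 fold changes of -0.21 (FDR 0.605) and -0.48 (FDR 0.633), and *Myog* and *Myh4* stayed at background level in all 4 pools. Of the 10, 8 had negative log2 fold changes. *Myh1*, named after its values were seen, went the other way and missed the FDR limit (log2 fold change 0.77, FDR 0.264). It read 42.9 and 54.4 in young adult pools and 86.5 and 78.7 in aged pools. The muscle sums were 2305 and 2803 in young adult pools and 2098 and 2310 in aged pools.

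Enamel and dentin cells share several of these matrix genes, and 0 of their 8 markers passed. Of these, 6 stayed at background level in all 4 pools, among them *Amelx*, *Ambn*, *Enam* and *Dspp*, the defining markers of ameloblasts and odontoblasts. Of 8 markers of respiratory epithelium and glands, 3 fell and 1 rose, with a median of -0.04. The brightest were *Bpifa1* (log2 fold change 0.19, FDR 0.459) and *Ltf*, which the marrow list also holds. Those that fell, named after their values were seen, were *Muc5ac*, *Ltf* and *Krt5*. Their log2 fold changes were -2.10, -0.67 and -0.49 (FDR 0.178, 0.201 and 0.216). The one that rose was *Muc5b* (log2 fold change 0.44, FDR 0.245).

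**Figure D5:**
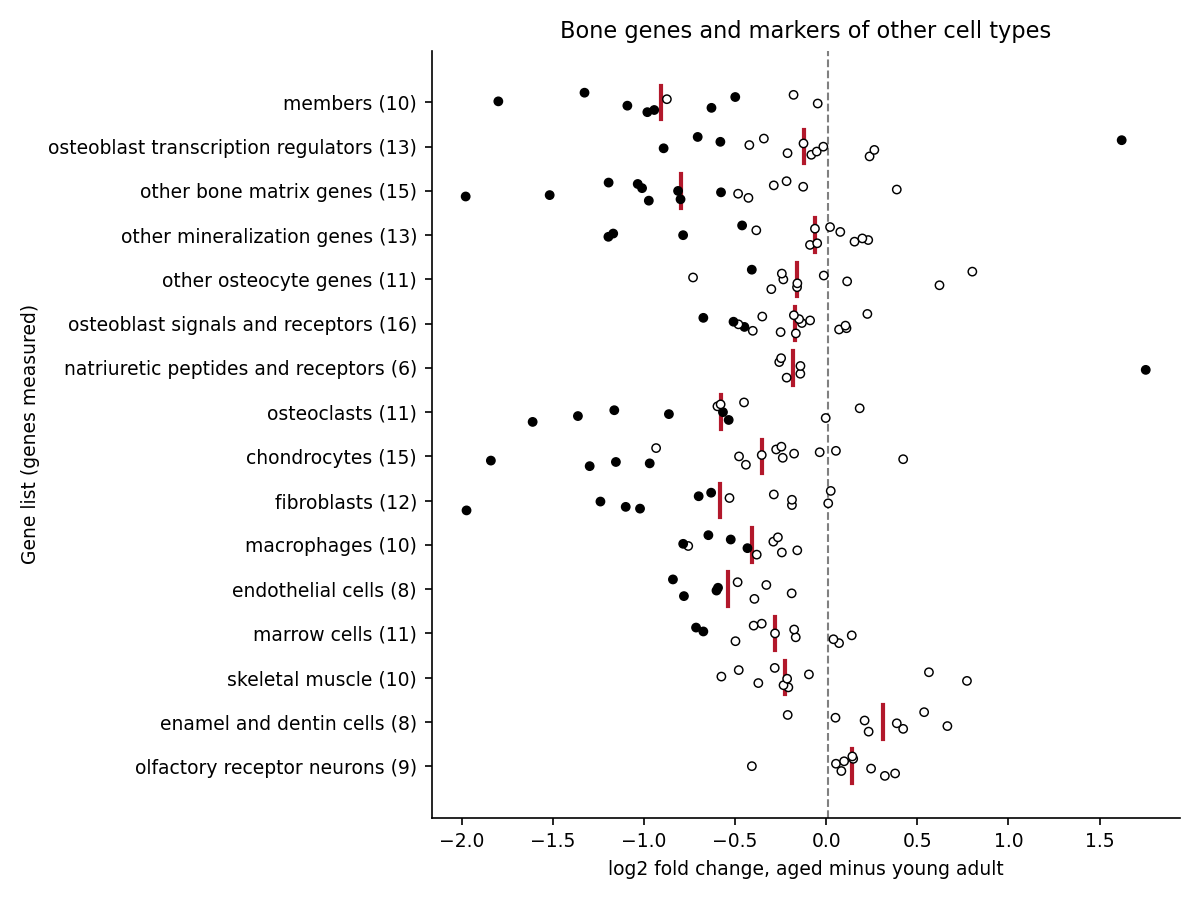
The log2 fold change (aged minus young adult) of every gene of each list, filled where it passed the P and FDR criteria; red bars are list medians and the dashed line is the median of all genes. The 10 bone genes have a median of -0.91, osteoclasts and fibroblasts of -0.58, and olfactory receptor neurons of 0.14.

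The genes whose pattern over the 4 arrays was most like that of *Sp7*, by Euclidean distance between centered log2 values, were *Pax5* (0.11), *Fendrr* (0.16), *Marveld1* (0.19), *Llcfc1* (0.19) and *Fat1* (0.20). None of these 5 passed the criteria, and 47 genes lay within a distance of 0.3. The *Sp7* pattern here includes its dim probe.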

How the data were processed

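Nasal mucosa RNA was hybridized to 4 Agilent one-color arrays, 2 per age. Spot values were extracted by the authors with Feature Extraction 11.0.1.1, and the deposited spot and background median intensity values were not normalized between arrays. The deposited table of series values was identical, spot by spot, to the processed intensity (62976 spots per array).

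Intensities were background corrected with normexp (offset 0) over all spots in limma 3.58.1 under R 4.3.3. Control spots were removed, and so were flagged spots (88 to 118 non-control spots per array). Spots of a probe were averaged, log2 values quantile normalized, and probes of a gene averaged on the log2 scale. Accessions of 32994 of 56605 probes matched the RefSeq gene table (GRCm38.p6). The array design names another build, so no coordinates came from that table. Array number limits precision.

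Ages were compared with limma without covariates. Genes had to reach P under 0.05 together with an FDR (Benjamini-Hochberg, 45604 genes) under 0.25. DEGs also had a mean of at least 100 and a fold change of at least 1.5. The fit was tested on simulated data. Where a gene was not well above background on both aged arrays, the bound used, for each array, the higher of its own value and the dimmest probe above background.

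The 10 genes and all lists were chosen with earlier results of these data known. Named were the 10 genes, up to 4 genes per direction of each pathway list by smallest P, the 2 brightest of each marker list, the 5 most like *Sp7*, and genes a result turns on. Alternatives changed background, scaling, flags, probe averaging, the spread model, pairing, slide and arrays used.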

Additional observations from a re-analysis of the deposited data

How the results depend on the processing

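Main calls over all genes were 754 higher and 1063 lower in aged mice. They became 1298 and 1691 with an offset of 16, 2107 and 2475 with an offset of 50, and 1788 and 2239 without background correction. They were 2029 and 2343 with the quantile normalized processed signal, and 3578 and 3671 without dim probes, which left 29495 genes tested. With probes averaged on the linear scale they were 1134 and 1599, and with an intensity trend 3612 and 3518. In these and the other settings with a test of all 4 arrays and no block, 7 to 9 of the bone genes fell and 0 rose. The setting without dim probes kept some bone genes only through the young adult pools, so its count is not separate support. With the replicate number as a block (replicate block), 0 genes rose, 0 fell and 0 of the 10 fell (smallest FDR 0.433). The labels give these arrays only a number in common, but the replicate 1 arrays also shared a slide, while the replicate 2 arrays did not. Deviations of same-numbered arrays correlated at -0.08 across all genes and -0.50 across the 10, which are not independent replicates. Leaving out one array gave 0 to 0 calls in each direction and 0 to 0 of the 10 genes, a fit with 1 array in an age that assumes it varies like the other age. *Mepe* turned to 0.0020 with the quantile normalized processed signal, and ran from -0.20 to 0.11 without one array. *Sp7* ran from -0.44 to 0.10 without one array and was 0.34 with the arrays of one slide alone, where the median of the 10 genes was -0.92. Slide as a random block was not run, because its correlation could be estimated for 0 genes, and as a fixed block it leaves 0 residual degrees of freedom. The cause of these changes was not tested. *Ostn*, *Phex*, *Runx2* and *Sp7* were dim, and signal over background limits their values.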

Other observations

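Among the other osteocyte genes, 2 were chosen for mention after their values were seen. *Fgf23*, encoding the phosphate-regulating hormone that osteocytes secrete, read 42418 and 43276 in young adult pools and 46495 and 46317 in aged pools, a log2 fold change of 0.12 (FDR 0.595). This rests on 1 probe whose sequence was not used here, and whether its bright signal came from osteocytes was not tested. *Sost*, encoding the osteocyte protein sclerostin, was not well above background on any array.

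*Klk4*, a protease of enamel formation and the brightest of its list, read 186 and 203 in young adult pools and 190 and 213 in aged pools, with overlapping groups.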
